A study of Mus musculus with 18 samples.

Results

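The enzymes of branched-chain amino acid breakdown were followed in mouse tibialis anterior, which lies at the front of the lower leg. They are 10 genes chosen by name, with earlier results of these data known: Bcat2, Bckdha, Bckdhb, Dbt, Bckdk, Ppm1k, Ivd, Mccc1, Hibch and Hibadh. All 10 were found among the 20922 genes of the expression table, and all 10 were among the 12262 genes tested, those whose normalized counts averaged at least 10 across the 18 libraries. The mice carried floxed Bmal1 alleles (Bmal1fx/fx), the gene of a core transcription factor of the circadian clock, and the ACTA-rtTA-TRE-Cre system, in which an actin promoter lets doxycycline switch on Cre in muscle. Doxycycline was given by oral gavage, the femoral artery of 1 limb was ligated a week after the last dose, and muscles of both limbs were taken on day 36 after surgery. The ligated limb is labelled PAD, for peripheral artery disease. The 4 groups were control mice (WT) with 5 libraries of the intact, contralateral limb and 4 of the ligated limb, and knockout mice (BKO) with 5 intact and 4 ligated libraries. Controls carry the floxed alleles too, and cells outside the muscle fibre are not targets of the driver. Of the Cre genotype the labels write +/+ for the control mice and -/- for the knockout mice, and the group names were followed for the direction of each genotype comparison. The sources used here give no age, sex or time of day of collection.

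Leucine, isoleucine and valine are unusual among the essential amino acids in that skeletal muscle, more than liver, takes the opening step of their breakdown. Mitochondrial aminotransferase, the product of Bcat2, moves the amino group away and leaves branched-chain keto acids, which the branched-chain keto acid dehydrogenase complex commits to oxidation. A dedicated kinase (Bckdk) phosphorylates and inhibits that complex, a dedicated phosphatase (Ppm1k) reverses this, and separate mitochondrial enzymes then carry the leucine and valine skeletons toward acetyl-CoA, ketone bodies and succinyl-CoA.

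Depth was 14.1 to 25.6 M reads per library (M, mega). The mitochondrial ribosomal RNA mt-Rnr2 took 31.9 to 36.1% of the reads in intact and 38.1 to 55.5% in ligated libraries. Its share was highest in BKO ligated libraries 5 (55.5%) and 4 (51.9%). Some of the results that rest on these libraries are therefore also given without them, a choice made after seeing the data. Bmal1 (symbol Arntl) had normalized counts of 41.3 to 68.4 in WT intact and 42.4 to 61.1 in BKO intact libraries, against 12.2 to 18.3 in WT ligated and 63.8 to 82.0 in BKO ligated ones, so its reads did not separate the genotypes in intact limbs. In ligated limbs they were higher in the libraries labelled BKO, by 2.05 ± 0.19 on the log2 scale (limma adjusted p = 1.67e-07), opposite in direction to a loss of the gene. Reads of all exons are summed and the deleted exons are not named in the labels, so this value is no check of the deletion, and WT and BKO stand throughout for the groups as labelled. The 6 muscle fibre markers were expressed in every group, with a summed level of 1008050 to 1222470 normalized counts in intact and 710509 to 909302 in ligated libraries. The summed adipocyte markers were 22.2 to 160.0 in intact libraries, 2373 to 4703 in WT ligated and 804 to 3197 in BKO ligated ones. On ligation 6 of 6 were called higher in each genotype, as were 18.7% of all tested genes in WT and 22.1% in BKO. Of these 6 genes, 4 had group means under 10 in intact limbs of each genotype. Summed fibroblast markers ranged from 4469 to 6371 in intact and 9909 to 16408 in ligated libraries, and endothelial markers from 1615 to 2326 and 2775 to 4086. Summed macrophage markers were 230.4 to 487 in intact, 567 to 718 in WT ligated and 320 to 529 in BKO ligated libraries. On ligation 4 of 7 were called higher in WT and 0 of 7 in BKO, with median log2 fold changes of 0.75 and 0.25. The genotype difference of the ligation effect (the interaction) was called for 0 of the 7, and for 6.01% of all tested genes. The part of the marker shifts, and of mt-Rnr2, in the ligation and interaction results was not tested. In bulk muscle fewer cells of a type and less RNA per cell cannot be told apart. The labels leave unsaid whether samples that share a number come from 1 mouse, or each from its own, and p-values reflect the spread among these libraries.

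The order of the enzymes was read per kilobase of transcript, using the median length of the protein-coding transcripts of each gene. In WT intact muscle Bckdk had the highest level, at 575 ± 28.3 normalized counts per kilobase (SD, n = 5), followed by Bckdha at 385 ± 33.2 (SD, n = 5), Hibadh at 323 ± 21.9 (SD, n = 5) and Ivd at 195 ± 35.6 (SD, n = 5). Hibch and Bcat2 came next, at 161 ± 25.5 and 115 ± 16.2 per kilobase (SD, n = 5). Bckdhb, Dbt, Mccc1 and Ppm1k were lowest, at 81.3 ± 11.7, 74.9 ± 7.52, 57.2 ± 9.98 and 45.7 ± 3.32 per kilobase (SD, n = 5). Of neighbours in this order, Ivd and Hibch, Bckdhb and Dbt, and Mccc1 and Ppm1k had overlapping ranges of mean ± SD. By group mean the 6 genes at the top kept that order in all 4 groups. Among these 6, the ranges of mean ± SD of Hibch and Bcat2 overlapped in both ligated groups. In BKO ligated muscle those of Bckdha and Hibadh, and of Ivd and Hibch, overlapped too. The order below the 6 varied: Mccc1 was the lowest of the 10 in BKO intact muscle (42.2 ± 5.94, SD, n = 5) and ranked 7 in both ligated groups. With the longest transcript in place of the median, Bckdha ranked 1 in every group and Bckdk 3 in 3 groups and 2 in BKO intact muscle. The kinase thus had more reads per kilobase than the phosphatase in every group under either length.

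The bases around transcription starts are shown for the aminotransferase (Bcat2), a dehydrogenase subunit (Bckdha) and the kinase (Bckdk). Of the subunits, Bckdha and Dbt had the largest and nearly equal genotype differences of the ligation effect (log2 -0.90 and -0.89), and Dbt had no matched start. A link between these sequences and the expression values was not tested. Each window runs from 250 bases before to 50 bases after a start in RefSeq on GRCm38.p6, 5′ to 3′ on the strand of the gene, and is in lower case. Capitals mark the E'-box, CACGTT read on the opposite strand, a sequence that BMAL1-CLOCK is known to bind. Of the Bcat2 windows the one that holds an E'-box is shown, and that of the upstream start holds none. The windows are chr7:45571029-45571328 (plus strand, the downstream of the Bcat2 starts), chr7:25658712-25659011 (minus strand, Bckdha) and chr7:127903823-127904122 (plus strand, Bckdk).
Bcat2: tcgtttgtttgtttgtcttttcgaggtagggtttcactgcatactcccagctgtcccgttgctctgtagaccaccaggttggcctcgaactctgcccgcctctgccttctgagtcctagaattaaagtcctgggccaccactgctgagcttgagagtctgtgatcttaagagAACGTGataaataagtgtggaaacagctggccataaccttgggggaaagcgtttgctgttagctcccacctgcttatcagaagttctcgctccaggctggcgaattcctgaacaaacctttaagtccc
Bckdha: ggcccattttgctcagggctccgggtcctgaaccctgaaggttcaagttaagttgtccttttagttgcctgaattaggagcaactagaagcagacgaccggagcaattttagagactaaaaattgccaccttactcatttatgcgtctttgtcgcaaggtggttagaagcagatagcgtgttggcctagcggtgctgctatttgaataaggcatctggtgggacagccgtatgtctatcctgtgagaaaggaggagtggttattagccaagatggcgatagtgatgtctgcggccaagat
Bckdk: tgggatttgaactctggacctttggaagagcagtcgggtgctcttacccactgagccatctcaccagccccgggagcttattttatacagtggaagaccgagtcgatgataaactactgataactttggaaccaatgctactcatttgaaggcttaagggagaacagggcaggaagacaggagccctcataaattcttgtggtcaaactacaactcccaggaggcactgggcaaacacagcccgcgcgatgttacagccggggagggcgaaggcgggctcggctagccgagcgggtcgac

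RefSeq windows were matched for 9 of the 10 genes, 11 in all, since Bcat2 and Bckdhb have more than 1 start; Dbt was not matched. The E-box CACGTG, the main BMAL1-CLOCK sequence, was in 0 of the 11 windows and in 7.15% of all 32851 promoter windows of this length, on either strand. The E'-box CACGTT was in 1 of the 11, the Bcat2 window above, beginning 78 bases before the start, and in 4.68% of all windows. The D-box TTANGTAA and the site AAGGTCA of ROR and ERR receptors were in 0 of 11 windows each, against 2.32% and 4.72% of all. The GC box GGGCGG, a sequence of many promoters that is bound by SP1, was in 5 of 11 windows and in 35.7% of all. It fell in the windows of Hibch, Hibadh, Ppm1k, Mccc1 and Bckdhb. The E-box and E'-box differ in their last letter, so no site counts as both, and a window without a match says only that these letters are not in it. Median GC content was 53.0% over the 11 windows and 52.7% over all, and the median number of CpG dinucleotides was 13 against 7.

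Which of these genes were called on ligation differed between the 2 genotypes, and 6 of the 10 passed in a test of the difference itself. In WT muscle 4 of the 10 rose (Bckdha, Bckdk, Mccc1, Hibadh) and 2 fell (Bckdhb, Dbt), 6 called in all where 39.8% of all tested genes passed, 18.7% higher and 21.1% lower. In BKO muscle 7 fell (Bcat2, Bckdha, Bckdhb, Dbt, Bckdk, Ppm1k, Ivd) and 1 rose (Mccc1), 8 called where 47.2% of all genes passed, 25.1% lower and 22.1% higher. The median log2 fold change of the 10 was 0.00 in WT and -0.51 in BKO, and over all tested genes it was -0.00 in each. These 2 comparisons share no libraries, and their difference was tested as the interaction, which takes the log2 change on ligation in WT from that in BKO. There 6 of the 10 were lower (Bckdha, Dbt, Bckdk, Ppm1k, Ivd, Hibadh) and the other 4 did not pass, where 6.01% of all genes passed, 2.97% lower and 3.04% higher. The median of the 10 was -0.55, that of all genes -0.01, and 8 of the 10 estimates were below 0. Because the 10 were chosen with earlier results of these data known, these shares and medians do not test them as a set. A gene passed at an adjusted p under 0.05 in limma, with Benjamini-Hochberg adjustment over all 12262 genes. Without BKO ligated libraries 4 and 5, 5 of the 6 kept the interaction call and Ivd did not (-0.53, adjusted p = 0.147), and 269 genes in place of 737 passed in all. On ligation in BKO only Bckdk of the 8 lost its call without those libraries (limma adjusted p = 0.0942), and 4050 genes in place of 5790 passed.

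Between genotypes within a limb, 4 of the 10 were higher and 1 lower in BKO intact muscle, where 18.3% of all genes passed, 8.56% higher and 9.75% lower. Those higher were Bckdha, Bckdk, Ivd and Hibadh, and Mccc1 was lower. In ligated muscle 4 were lower in BKO (Dbt, Bckdk, Ppm1k, Hibadh) and the other 6 did not pass, where 8.84% of all genes passed, 4.68% lower and 4.16% higher. The medians were 0.25 in intact and -0.24 in ligated limbs, against 0.00 and -0.02 over all genes. The interaction shares its libraries with all 4 of these comparisons, and the values are given side by side. The count in intact limbs was 3 without BKO intact library 1 or 2. That in ligated limbs was 2 without WT ligated library 2, 1 without WT ligated library 5, 2 without BKO ligated library 4 and 1 without BKO ligated libraries 4 and 5, Dbt being called each time.

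The groups did not overlap in WT ligation for 2 of the 10 genes (Hibadh higher, Bckdhb lower), with 32.5% of all tested genes not overlapping. In BKO ligation they did not overlap for 7 of the 10, Mccc1 higher and Bcat2, Bckdha, Bckdhb, Dbt, Ppm1k and Ivd lower, with 35.7% of all genes. Between genotypes, 5 of 10 did not overlap in intact limbs (Bcat2, Bckdha, Bckdk and Hibadh higher, Mccc1 lower in BKO) and 5 of 10 in ligated limbs (Bckdha, Dbt, Ppm1k, Ivd and Hibadh lower in BKO), with 14.4% and 12.9% of all genes.

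**Figure D1:**
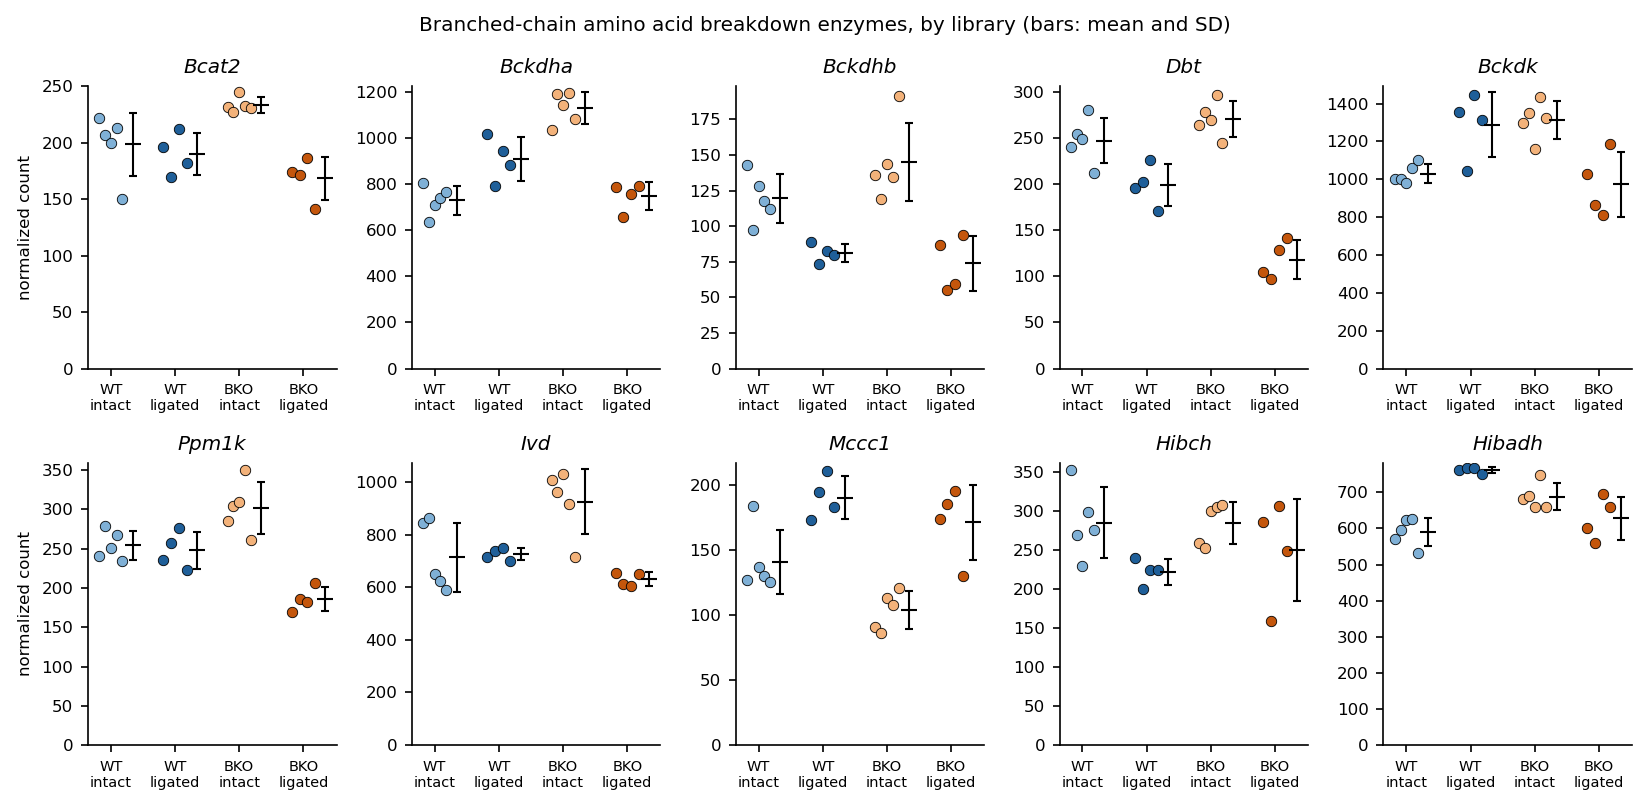
Normalized counts (vertical axes, from 0) of the 10 enzymes in each library, by group, with bars for the mean and SD (5 intact and 4 ligated libraries per genotype). Dbt in BKO ligated muscle lay at 96.9 to 142, below every other library, and Bckdha in BKO intact muscle at 1033 to 1194, above every other library.

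**Figure D2:**
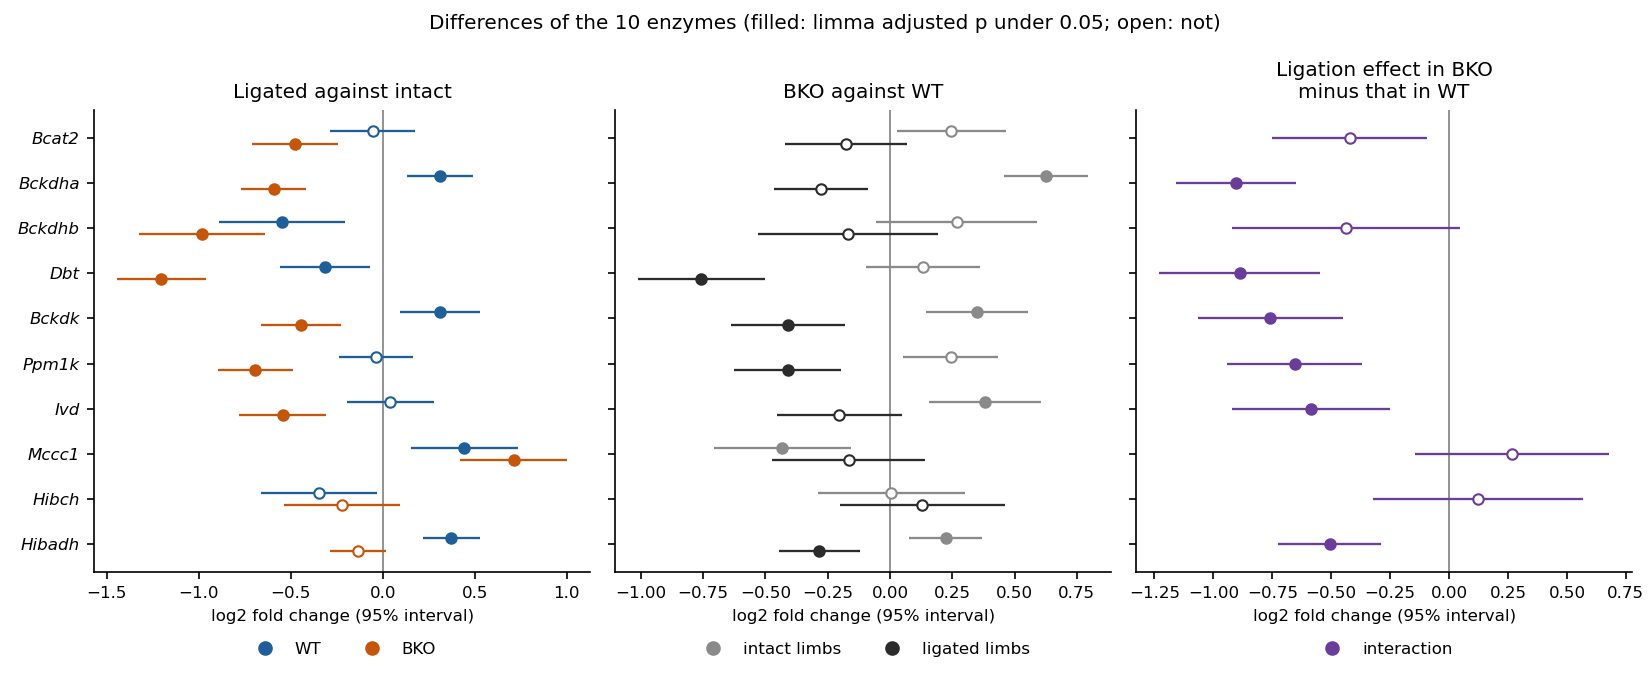
Log2 fold changes from limma with 95% intervals for ligated against intact limbs, BKO against WT and the interaction, for the 10 enzymes; filled points passed at an adjusted p under 0.05. In the left panel 7 BKO points are filled below 0, and in WT only Bckdhb and Dbt are.

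The dehydrogenase complex was followed through its decarboxylase subunits, alpha (Bckdha) and beta (Bckdhb), and its transacylase core (Dbt), which carries the acyl group to coenzyme A. Bckdha (ENSMUSG00000060376, chromosome 7, 25629946 to 25658981, minus strand, mm10) had 803, 636, 708, 741 and 765 normalized counts in WT intact libraries and 1016, 791, 942 and 882 in WT ligated ones. In BKO it had 1033, 1188, 1141, 1194 and 1082 in intact libraries and 786, 658, 759 and 790.2 in ligated ones. The BKO intact libraries were the highest of all 18, and the BKO ligated ones lay within the range of WT intact muscle; WT intact and ligated libraries overlapped. Bckdha rose on ligation in WT by 0.31 ± 0.09 on the log2 scale (limma adjusted p = 0.00653) and fell in BKO by 0.59 ± 0.09 (adjusted p = 1.24e-05). It was 1.55-fold higher in BKO than in WT intact muscle (log2 0.63 ± 0.08, adjusted p = 1.25e-05), and the difference was -0.28 ± 0.09 in ligated muscle (adjusted p = 0.0625; 0.0254 with DESeq2 and 0.0232 without WT ligated library 4). Its interaction was -0.90 ± 0.12 (95% interval -1.16 to -0.65, adjusted p = 0.000479), and -0.83 without BKO ligated libraries 4 and 5 (adjusted p = 0.00582).

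Dbt (ENSMUSG00000000340, chromosome 3, 116513070 to 116549981, plus strand) had the largest fall of the 10 genes. In WT it had 240.0, 255, 249, 280.3 and 212 normalized counts in intact and 196, 202, 226 and 171 in ligated libraries. BKO intact libraries had 264, 278, 269.8, 296 and 244, and BKO ligated libraries 105, 96.9, 129 and 142. All 4 BKO ligated libraries were below all 14 others, while WT intact and WT ligated libraries overlapped. On ligation Dbt fell 2.30-fold in BKO (log2 -1.20 ± 0.12, limma adjusted p = 9.22e-08). In WT it fell by 0.31 ± 0.12 (adjusted p = 0.0372), a call lost in 8 of the 19 alternatives run, among them leaving out any 1 of WT intact libraries 3, 4 and 5 or WT ligated libraries 2, 4 and 6 (adjusted p up to 0.135). Dbt was lower in BKO than in WT ligated muscle by -0.76 ± 0.12 (adjusted p = 0.000276), in all 18 alternatives too, and its difference in intact muscle was 0.13 ± 0.11 (adjusted p = 0.459). The interaction of Dbt was -0.89 ± 0.16 (95% interval -1.23 to -0.55, adjusted p = 0.00468), and -0.83 without BKO ligated libraries 4 and 5 (adjusted p = 0.0224).

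Bckdhb (ENSMUSG00000032263, chromosome 9, 83925145 to 84124240, plus strand) encodes the partner of the Bckdha product in the decarboxylase. It had 143, 97.1, 128, 118 and 112 normalized counts in WT intact and 89.1, 73.2, 82.7 and 79.9 in WT ligated libraries. The BKO intact libraries held 136, 119, 144, 135 and 192, and BKO ligated ones 86.9, 55.2, 59.2 and 94.0. Ligated libraries lay below intact ones in each genotype without overlap. It fell on ligation by 0.54 ± 0.16 in WT (limma adjusted p = 0.0119) and by 0.98 ± 0.16 in BKO (adjusted p = 6.08e-05), and by 0.66 in BKO without libraries 4 and 5 (adjusted p = 0.00634). The interaction was -0.44 ± 0.23 (adjusted p = 0.284), -0.11 without those libraries, so a difference of the 2 falls did not pass the test. Between genotypes the difference was 0.27 ± 0.16 in intact limbs (adjusted p = 0.262). It was -0.17 ± 0.17 in ligated limbs (adjusted p = 0.62), and 0.16 without those libraries.

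The subunits of the complex therefore did not keep 1 ratio of reads across the groups. The difference of log2(normalized count + 1), Dbt minus Bckdha, was chosen after the values were seen and is given with no test. It was -1.56 ± 0.23 (SD, n = 5; -1.85 to -1.32) in WT intact and -2.19 ± 0.21 (SD, n = 4; -2.37 to -1.96) in WT ligated libraries. Intact BKO libraries had -2.06 ± 0.07 (SD, n = 5; -2.14 to -1.96), and BKO ligated ones -2.67 ± 0.19 (SD, n = 4; -2.89 to -2.47). Every ligated library was below every intact library of its genotype. Dld, the dihydrolipoamide dehydrogenase that the complex shares with other mitochondrial dehydrogenases, had a log2 fold change on ligation of 0.05 ± 0.07 in WT (adjusted p = 0.62), fell in BKO by 0.27 ± 0.07 (adjusted p = 0.00286), and was higher in BKO intact muscle by 0.21 ± 0.06 (adjusted p = 0.0288), a call lost without WT intact or BKO intact library 3 or 4.

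The kinase Bckdk (ENSMUSG00000030802, chromosome 7, 127904082 to 127910221, plus strand) had 1004, 1003, 981, 1061 and 1104 normalized counts in WT intact and 1354, 1044, 1443 and 1312 in WT ligated libraries. In BKO it had 1296, 1351, 1162, 1437 and 1326 in intact and 1029, 865, 811 and 1188 in ligated libraries. WT ligated library 4 lay within the WT intact range and BKO ligated library 6 within the BKO intact range; the other ligated libraries lay above it in WT and below it in BKO. Bckdk rose on ligation in WT by 0.31 ± 0.10 (limma adjusted p = 0.0214), a call lost without WT ligated library 2, 5 or 6 (adjusted p = 0.0612, 0.0816 and 0.0516). It fell in BKO by 0.45 ± 0.10 (adjusted p = 0.0015), with -0.25 and no call without BKO ligated libraries 4 and 5 (adjusted p = 0.0942). Bckdk was higher in BKO intact muscle by 0.35 ± 0.10 (adjusted p = 0.0165) and lower in BKO ligated muscle by -0.41 ± 0.11 (adjusted p = 0.0214). The latter call was lost in 7 of 18 alternatives: without WT ligated library 2, 5 or 6 or BKO ligated library 4 or 5 (adjusted p = 0.0538 to 0.0889), without BKO ligated libraries 4 and 5 together (-0.21, adjusted p = 0.394) and with ligated libraries alone in the fit (adjusted p = 0.0996). The interaction was -0.76 ± 0.15 (95% interval -1.07 to -0.45, adjusted p = 0.00637), and -0.56 without those 2 libraries (adjusted p = 0.0446).

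The phosphatase Ppm1k (ENSMUSG00000037826, chromosome 6, 57506502 to 57535468, minus strand) had 241, 278, 250.3, 268 and 234 normalized counts in WT intact and 236, 258, 276 and 223 in WT ligated libraries. In BKO the intact libraries had 285, 304, 309, 351 and 261, and BKO ligated ones 169.9, 187, 182 and 207. WT libraries of both limbs covered the same range, and BKO ligated libraries were the lowest 4 of the 18. The log2 fold change on ligation was -0.04 ± 0.10 in WT (limma adjusted p = 0.791), and Ppm1k fell in BKO by 0.69 ± 0.10 (adjusted p = 8.73e-06). In intact muscle the genotype difference was 0.24 ± 0.09 (adjusted p = 0.0709), with a call without BKO intact library 5 (adjusted p = 0.0339). Ppm1k was lower in BKO ligated than in WT ligated muscle by -0.41 ± 0.10 (adjusted p = 0.0137), a call lost without WT ligated library 5 (adjusted p = 0.0586), without BKO ligated libraries 4 and 5 (adjusted p = 0.0938) and with ligated libraries alone in the fit (adjusted p = 0.0545). The interaction was -0.66 ± 0.14 (95% interval -0.94 to -0.37, adjusted p = 0.00925), and -0.64 without those 2 libraries (adjusted p = 0.044).

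Kinase and phosphatase act on the same site of the complex in opposite directions, so their difference on the log2(normalized count + 1) scale, Bckdk minus Ppm1k, was taken in each library as a description with no test. It was 2.02 ± 0.14 (SD, n = 5; 1.85 to 2.23) in WT intact and 2.37 ± 0.25 (SD, n = 4; 2.01 to 2.55) in WT ligated libraries. In BKO it was 2.12 ± 0.16 (SD, n = 5; 1.91 to 2.34) in intact and 2.37 ± 0.22 (SD, n = 4; 2.15 to 2.59) in ligated libraries. All 4 groups overlapped. Without BKO ligated libraries 4 and 5 the BKO ligated value was 2.55, above the BKO intact range. Enzyme activity and phosphorylation were not measured.

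**Figure D3:**
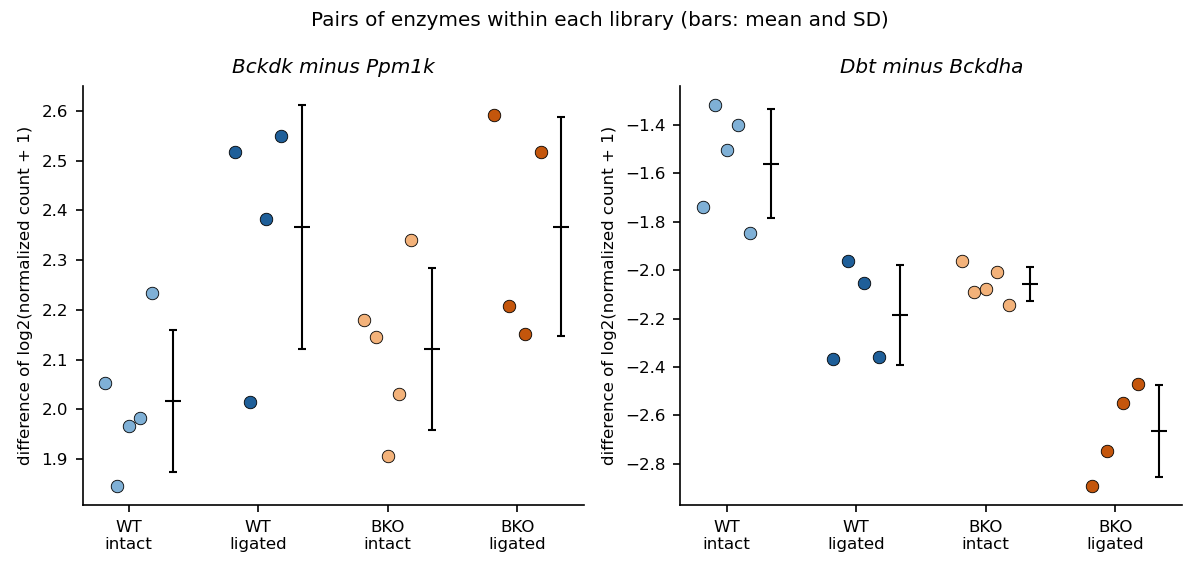
Differences of log2(normalized count + 1) within each library, Bckdk minus Ppm1k on the left and Dbt minus Bckdha on the right, by group, with bars for the mean and SD; the vertical axes do not start at 0. On the left all groups overlap between 1.85 and 2.59, and on the right BKO ligated libraries lie lowest, at -2.89 to -2.47.

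Bcat2 (ENSMUSG00000030826, chromosome 7, 45570153 to 45589711, plus strand), the aminotransferase upstream of the complex, had 222, 207, 200.05, 213 and 151 normalized counts in WT intact and 196, 169.5, 212 and 182 in WT ligated libraries. BKO intact libraries had 232, 228, 245, 233 and 231, and BKO ligated ones 174, 172, 187 and 141. BKO intact libraries lay close together and above those of every other group. Bcat2 fell on ligation in BKO by 0.48 ± 0.11 (limma adjusted p = 0.00153), and its log2 fold change in WT was -0.06 ± 0.11 (adjusted p = 0.724). The interaction was -0.42 ± 0.16 (adjusted p = 0.116), so a genotype difference of the ligation effect did not pass. Between genotypes the difference did not pass in intact muscle (0.25 ± 0.11, adjusted p = 0.118), although the groups did not overlap, nor in ligated muscle (-0.18 ± 0.12, adjusted p = 0.409). Bcat1, the cytosolic aminotransferase, was below the filter, with group means of 1.03 to 4.79 normalized counts.

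On the leucine branch, Ivd (ENSMUSG00000027332, chromosome 2, 118861954 to 118882909, plus strand) encodes isovaleryl-CoA dehydrogenase, the step after the complex. It had 845, 865, 648, 622 and 589 normalized counts in WT intact and 714, 736, 750.5 and 702 in WT ligated libraries. The BKO intact libraries held 1008, 961, 1029, 915 and 716, and BKO ligated ones 655, 611, 604 and 652. WT intact libraries spread widely, on both sides of the WT ligated ones, and BKO ligated libraries lay below BKO intact ones without overlap. Ivd fell on ligation in BKO by 0.54 ± 0.11 (limma adjusted p = 0.000579), its log2 fold change in WT was 0.04 ± 0.11 (adjusted p = 0.799), and it was higher in BKO intact muscle by 0.38 ± 0.11 (adjusted p = 0.0162). In ligated muscle the genotype difference was -0.20 ± 0.12 (adjusted p = 0.332). The interaction was -0.59 ± 0.16 (95% interval -0.92 to -0.25, adjusted p = 0.0355). That call was lost in 14 of 27 alternatives, 12 of them leaving out 1 library (WT intact 4, 5 or 6, WT ligated 2, 5 or 6, BKO intact 1, 2, 3 or 4, BKO ligated 4 or 5), with adjusted p up to 0.0697 over these.

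Mccc1 (ENSMUSG00000027709, chromosome 3, 35959312 to 36000678, minus strand), the biotin-carrying subunit of methylcrotonyl-CoA carboxylase further down the leucine branch, was the one gene of the 10 to rise in both genotypes. It had 126, 184, 137, 130.0 and 125 normalized counts in WT intact and 173, 194, 211 and 183 in WT ligated libraries. Intact BKO libraries had 90.7, 86.4, 113, 107 and 120.4, and BKO ligated ones 174, 185, 195 and 129. WT intact library 3 stood apart within its group and reached into the WT ligated range, while in BKO the limbs did not overlap. Mccc1 rose on ligation by 0.44 ± 0.14 in WT (limma adjusted p = 0.0155; 0.39 and no call without WT ligated library 5, adjusted p = 0.0515) and by 0.71 ± 0.14 in BKO (adjusted p = 0.000314). The interaction was 0.27 ± 0.20 (adjusted p = 0.464). It was lower in BKO intact muscle by -0.43 ± 0.13 (adjusted p = 0.0258), a call lost on leaving out library 3 of WT intact muscle or library 1 or 2 of BKO intact muscle (adjusted p = 0.0877, 0.068 and 0.0755), and the difference in ligated muscle was -0.16 ± 0.15 (adjusted p = 0.56). Mccc2, the other subunit of that carboxylase, did not rise: its log2 fold change was 0.05 ± 0.11 in WT (adjusted p = 0.755) and it fell in BKO by 0.42 ± 0.11 (adjusted p = 0.00333).

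On the valine branch, Hibch (ENSMUSG00000041426, chromosome 1, 52844929 to 52920986, plus strand) releases free hydroxyisobutyrate from coenzyme A, and Hibadh oxidizes it. Hibch had 352, 269, 229.6, 299 and 276 normalized counts in WT intact and 239.8, 199, 225 and 225 in WT ligated libraries. In BKO the intact libraries had 259, 253, 299, 305 and 307, and BKO ligated ones 286, 159.5, 306 and 248, with overlap in every comparison. Hibch passed in none of the 5 comparisons by limma as fitted on all libraries, unlike the other 9. Its log2 fold changes on ligation were -0.35 ± 0.15 in WT (adjusted p = 0.0736; 0.0325 with WT libraries alone in the fit, 0.0383 without WT intact library 4 and 0.0181 without BKO ligated libraries 4 and 5) and -0.22 ± 0.15 in BKO (adjusted p = 0.236). Between genotypes it differed by 0.01 ± 0.14 in intact limbs (adjusted p = 0.983) and 0.13 ± 0.16 in ligated limbs (adjusted p = 0.689), and its interaction was 0.12 ± 0.21 (95% interval -0.32 to 0.57, adjusted p = 0.792).

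Hibadh (ENSMUSG00000029776, chromosome 6, 52546228 to 52640389, minus strand), hydroxyisobutyrate dehydrogenase, had 572, 597, 625, 626 and 531 normalized counts in WT intact and 761, 769, 769 and 752 in WT ligated libraries. BKO intact libraries had 683, 691, 659, 749 and 660.5, and BKO ligated ones 602, 559.6, 695 and 659. WT ligated libraries lay above all others and within a narrow range, whereas BKO limbs overlapped. It rose on ligation in WT by 0.37 ± 0.07 (limma adjusted p = 0.000447), and its log2 fold change in BKO was -0.13 ± 0.07 (adjusted p = 0.146). It was higher in BKO intact muscle by 0.22 ± 0.07 (adjusted p = 0.0299), a call lost on leaving out library 2 or 6 of WT intact muscle or 1, 2 or 4 of BKO intact muscle (adjusted p = 0.0517 to 0.0864). In ligated muscle it was lower in BKO by -0.28 ± 0.08 (adjusted p = 0.026). That call was lost without WT ligated library 2 or 5, BKO ligated library 2 or 4 (adjusted p = 0.0611 to 0.0905), BKO ligated libraries 4 and 5 together (adjusted p = 0.0842), or with ligated libraries alone in the fit (adjusted p = 0.0981). The interaction was -0.51 ± 0.10 (95% interval -0.73 to -0.29, adjusted p = 0.00863), and -0.50 without BKO ligated libraries 4 and 5 (adjusted p = 0.023).

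The other enzymes of the pathway were taken from a list of 14 genes, 13 of them tested, also drawn up with earlier results of these data known. On ligation 2 of the 13 rose and 4 fell in WT, and 1 rose and 10 fell in BKO, with medians of -0.07 and -0.42, where 39.8% and 47.2% of all tested genes passed. In BKO intact muscle 9 of the 13 were higher (median 0.29), and in BKO ligated muscle 1 was higher and 2 lower (median -0.12), where 18.3% and 8.84% of all genes passed. The interaction was lower for 5 (Echs1, Hsd17b10, Aldh6a1, Pccb, Mut) and higher for 1 (Pcca), with a median of -0.46. Over the 10 and these 13 together, 11 of 23 genes had a lower and 1 a higher interaction, with a median of -0.49, where 2.97% of all genes passed lower and 3.04% higher and their median was -0.01. The 6 calls on ligation in WT were 3 without WT ligated library 4. The 9 higher genes in intact muscle were 3 to 5 without WT intact library 3 or 4 or BKO intact library 1, 3 or 4. The 6 interaction calls were 3 without WT ligated library 2 and 3 without BKO ligated libraries 4 and 5.

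Among these enzymes, Echs1, the short-chain enoyl-CoA hydratase that serves the valine and isoleucine branches and fatty acid oxidation, rose on ligation in WT by 0.51 ± 0.09 (limma adjusted p = 7.42e-05) its means being 398 ± 29.6 in intact (SD, n = 5) and 569 ± 56.0 in ligated muscle (SD, n = 4) as normalized counts. In BKO its log2 fold change was -0.15 ± 0.09 (adjusted p = 0.155), with means of 489.6 ± 26.3 (SD, n = 5) and 442 ± 41.8 (SD, n = 4), and its interaction was -0.67 ± 0.12 (adjusted p = 0.00436). Mut, methylmalonyl-CoA mutase at the end of the valine and isoleucine branches, fell on ligation in BKO by 0.55 ± 0.07 (adjusted p = 2.46e-06), and its log2 fold change in WT was -0.02 ± 0.07 (adjusted p = 0.808). Its interaction was -0.52 ± 0.10 (adjusted p = 0.00502). The interaction calls of Echs1 and Mut held in all 27 alternatives. Pcca and Pccb encode the subunits of propionyl-CoA carboxylase and differed in direction: the interaction was 0.77 ± 0.20 for Pcca (adjusted p = 0.0262) and -0.53 ± 0.12 for Pccb (adjusted p = 0.0136). Pcca fell on ligation in WT by 0.99 ± 0.14 (adjusted p = 1.25e-05), with -0.22 ± 0.14 in BKO (adjusted p = 0.214), while Pccb fell in BKO by 0.60 ± 0.08 (adjusted p = 8.98e-06), with -0.07 ± 0.08 in WT (adjusted p = 0.543).

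Of the remaining enzymes, Hsd17b10, a dehydrogenase of the isoleucine branch, fell on ligation in BKO by 0.59 ± 0.10 (limma adjusted p = 5.07e-05), and its interaction of -0.49 ± 0.14 (adjusted p = 0.0404) was lost in 16 of 27 alternatives. Aldh6a1, methylmalonate semialdehyde dehydrogenase at the end of the valine branch, fell in BKO by 0.60 ± 0.10 (adjusted p = 6.18e-05), with an interaction of -0.54 ± 0.14 (adjusted p = 0.0288) lost in 6 of 27. The interaction of Pcca was lost in 7 of 27 alternatives and that of Pccb in 1. Acat1, the thiolase that ends the isoleucine branch, fell by 0.32 ± 0.11 in WT (adjusted p = 0.0241, lost in 4 of 19) and by 0.84 ± 0.11 in BKO (adjusted p = 3.81e-06). Auh, the hydratase after the methylcrotonyl-CoA step, fell in BKO by 0.58 ± 0.11 (adjusted p = 0.000154). Acadsb, which acts on isoleucine, fell by 0.31 ± 0.10 in WT (adjusted p = 0.0208, lost in 2 of 19) and by 0.27 ± 0.10 in BKO (adjusted p = 0.0378, lost in 12 of 19). Mcee, methylmalonyl-CoA epimerase, fell by 0.35 ± 0.11 in WT (adjusted p = 0.0131, lost without WT ligated library 4) and by 0.42 ± 0.11 in BKO (adjusted p = 0.0033). Acad8, isobutyryl-CoA dehydrogenase of the valine branch, rose by 0.38 ± 0.12 in WT (adjusted p = 0.0155, lost in 2 of 19) and by 0.33 ± 0.12 in BKO (adjusted p = 0.0297, lost in 7 of 19). The 9 genes higher in BKO intact muscle were Dld, Mccc2, Auh, Echs1, Hsd17b10, Acat1, Acad8, Pccb and Mut, by 0.20 (Mut) to 0.38 (Acad8). Of these, Echs1, Hsd17b10 and Pccb kept the call in all 20 alternatives. In BKO ligated muscle Echs1 (-0.36 ± 0.09, adjusted p = 0.0131) and Mut (-0.33 ± 0.07, adjusted p = 0.00631) were lower and Pcca (0.52 ± 0.15, adjusted p = 0.0334) higher, lost in 3, 2 and 7 of 18 alternatives.

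**Figure D4:**
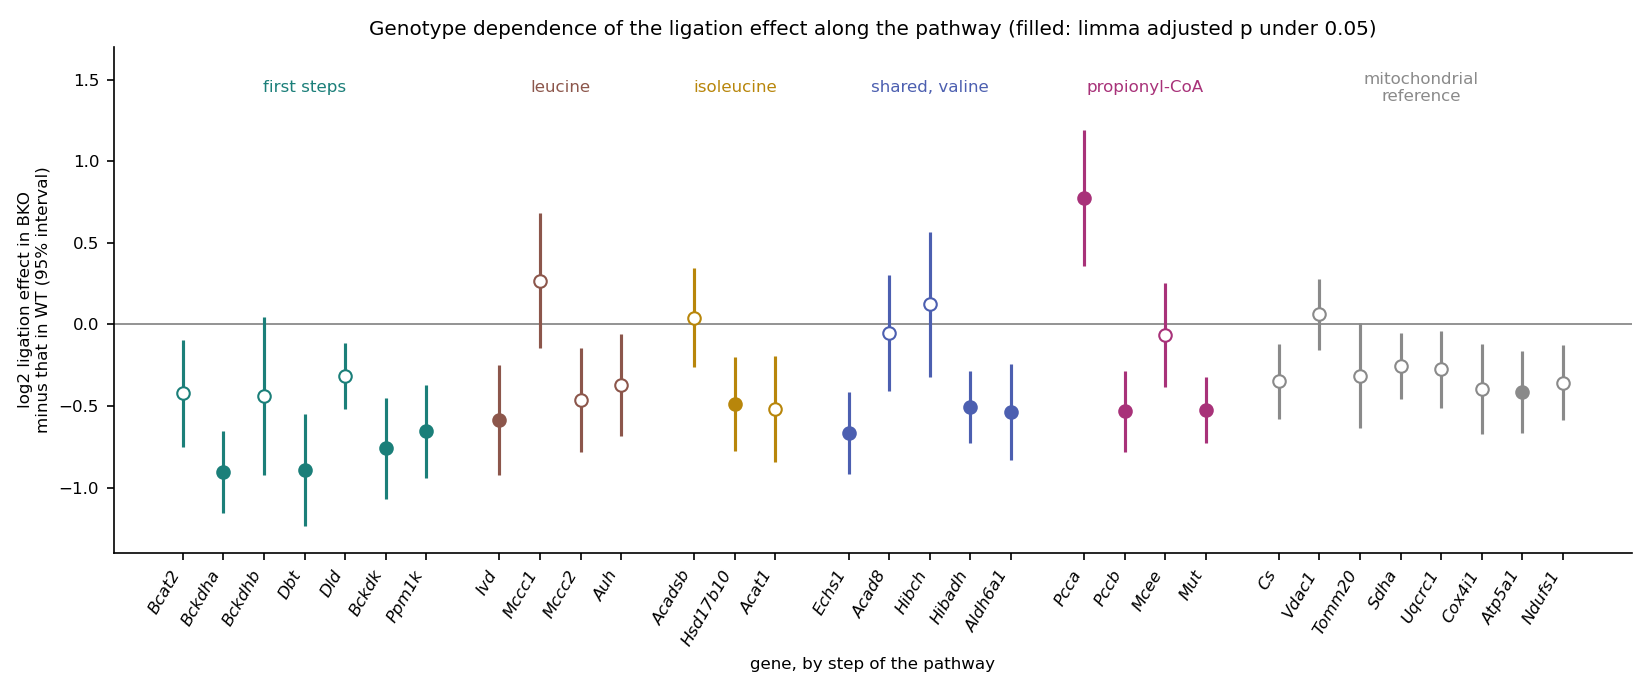
Interaction log2 fold changes (the change on ligation in BKO less the change in WT, vertical axis) with 95% intervals from limma for the 10 enzymes, the other enzymes of the pathway and the mitochondrial reference genes; filled points passed at an adjusted p under 0.05. Of the 23 pathway enzymes tested 11 passed below 0 and 1, Pcca, above, and of the 8 reference genes Atp5a1 passed.

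Since these enzymes work in mitochondria, 8 genes of other mitochondrial functions (Cs, Vdac1, Tomm20, Sdha, Uqcrc1, Cox4i1, Atp5a1, Ndufs1) were read beside them. On ligation 2 of the 8 rose in WT, and 1 rose and 3 fell in BKO, with medians of 0.18 and -0.15 against 0.00 and -0.51 for the 10 enzymes; of all genes 18.7% rose in WT, and 22.1% rose and 25.1% fell in BKO. In BKO intact muscle 7 were higher and 1 lower (median 0.39, against 0.25 for the 10 enzymes). In BKO ligated muscle 1 was lower (median 0.05, against -0.24 for the 10 enzymes). Of all genes 8.56% were higher and 9.75% lower in intact limbs, and 4.68% were lower in ligated limbs. The median interaction was -0.33 against -0.55 for the 10 enzymes. It was lower for 1, Atp5a1 of the ATP synthase (-0.41 ± 0.12, limma adjusted p = 0.0464), where 2.97% of all genes passed lower. That call was lost in 18 of 27 alternatives, while 4 of the 8 were lower with DESeq2 or without WT ligated library 4, 3 without WT intact library 6, and 2 without BKO intact library 5, without BKO ligated library 6 or with a minimum mean of 50. The difference between the lists was not tested. The genes that rose in WT were Sdha and Atp5a1. In BKO, Vdac1 rose and Cs, Tomm20 and Cox4i1 fell, and Vdac1 was also the one gene lower in BKO than in WT, in both limbs. The count on ligation in WT was 5, all higher, with edgeR, with DESeq2 or without BKO ligated libraries 4 and 5, 4 without WT intact library 6 or WT ligated library 4 and 1 without WT ligated library 6, and that in BKO was 2 without BKO ligated library 4 and 0 without BKO ligated libraries 4 and 5.

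Of 4 transcriptional regulators linked to the pathway, Klf15, which activates amino acid breakdown genes in muscle, fell on ligation in BKO by 0.77 ± 0.13 (limma adjusted p = 5.04e-05). Its log2 fold change in WT was -0.30 ± 0.13 (adjusted p = 0.0645) and its interaction -0.47 ± 0.18 (adjusted p = 0.123). Ppargc1a, the coactivator of mitochondrial genes, fell in both genotypes, by 0.95 ± 0.18 in WT (adjusted p = 0.000273) and by 1.29 ± 0.18 in BKO (adjusted p = 7.94e-06). Mlxipl, the carbohydrate-response factor ChREBP, fell in WT by 0.43 ± 0.11 (adjusted p = 0.00395) and rose in BKO by 0.42 ± 0.11 (adjusted p = 0.00382), with an interaction of 0.84 ± 0.15 (adjusted p = 0.00462). The rise in BKO was not called without BKO ligated libraries 4 and 5, and Mlxipl was lower in BKO intact muscle by -0.55 ± 0.10 (adjusted p = 0.000723). Esrra, an orphan receptor of mitochondrial genes, was lower in BKO ligated muscle by -0.45 ± 0.14 (adjusted p = 0.0426), a call lost in 8 of 18 alternatives. Leaving out WT ligated library 2, 5 or 6 or BKO ligated library 4 or 5 left 0 regulators called in that comparison. Leaving out WT ligated library 4 left 2, and with all libraries 8.84% of all tested genes passed there. On ligation in WT 2 of the 4 were called, where 39.8% of all genes passed. Without WT intact library 6 all 4 were called.

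Of 6 transport genes, 1 rose and 2 fell on ligation in WT, and 1 rose and 3 fell in BKO, where 39.8% and 47.2% of all tested genes passed. Slc25a44, the mitochondrial carrier of branched-chain amino acids, fell by 0.44 ± 0.11 in WT (limma adjusted p = 0.00397) and by 0.70 ± 0.11 in BKO (adjusted p = 3.97e-05), with an interaction of -0.26 ± 0.16 (adjusted p = 0.353). The plasma membrane carrier Slc7a8 fell by 0.84 ± 0.17 in WT (adjusted p = 0.000657) and by 0.57 ± 0.17 in BKO (adjusted p = 0.0114, lost without BKO ligated libraries 4 and 5), and it was lower in BKO intact muscle by -0.81 ± 0.16 (adjusted p = 0.00143). Slc43a2, another carrier of large neutral amino acids, rose by 0.42 ± 0.15 in WT (adjusted p = 0.0288, lost in 5 of 19 alternatives) and by 0.72 ± 0.15 in BKO (adjusted p = 0.000477). Slc43a1, its close relative, fell in BKO by 0.50 ± 0.18 (adjusted p = 0.025, lost in 7 of 19) and was lower in BKO ligated muscle by -0.65 ± 0.19 (adjusted p = 0.0337), a call lost in 5 of 18 alternatives, among them without WT ligated library 2 or 4 or BKO ligated library 5 or 6.

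The amino group taken off by Bcat2 passes through glutamate, and 6 genes that handle it were followed. Glul, glutamine synthetase, was lower in BKO in both limbs, by -1.32 ± 0.12 in intact (limma adjusted p = 1.18e-07) and -1.85 ± 0.13 in ligated limbs (adjusted p = 5.95e-09). Its means were 2044 ± 262 (SD, n = 5) and 2703 ± 458 (SD, n = 4) normalized counts in WT intact and ligated muscle, and 819 ± 114 (SD, n = 5) and 745 ± 105 (SD, n = 4) in BKO. On ligation Glul rose in WT by 0.40 ± 0.13 (adjusted p = 0.016, lost without WT ligated library 4). Gpt, the alanine aminotransferase of the cytosol, was higher in BKO in both limbs, by 1.51 ± 0.16 in intact (adjusted p = 8.55e-07) and 0.89 ± 0.18 in ligated limbs (adjusted p = 0.00206), with means of 84.1 ± 23.2 in WT and 235 ± 25.3 in BKO intact muscle (SD, n = 5), and it rose on ligation in WT by 0.76 ± 0.17 (adjusted p = 0.00107). The mitochondrial form Gpt2 fell on ligation by 0.59 ± 0.12 in WT (adjusted p = 0.000767) and by 0.81 ± 0.12 in BKO (adjusted p = 2.1e-05). The aspartate aminotransferases Got1 and Got2 were higher in BKO intact muscle by 0.63 ± 0.14 (adjusted p = 0.00249) and 0.55 ± 0.11 (adjusted p = 0.00102), and both fell on ligation in BKO, by 0.76 ± 0.14 (adjusted p = 0.000223) and 0.37 ± 0.11 (adjusted p = 0.0125). Their interactions were -0.75 ± 0.20 (adjusted p = 0.0348) and -0.56 ± 0.16 (adjusted p = 0.0437), lost in 10 and 17 of 27 alternatives. By limma 2.97% of all genes passed lower. With DESeq2, 4 of the 6 genes had a lower interaction, as did 571 of all 12262 genes. Leaving out WT intact library 4, WT ligated library 2 or 5, or BKO intact library 2, 3 or 4 left 0 called. Leaving out BKO ligated libraries 4 and 5 together also left 0. Glud1, glutamate dehydrogenase, rose on ligation in WT by 0.45 ± 0.08 (adjusted p = 0.000165), with 0.11 ± 0.08 in BKO (adjusted p = 0.28).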

How the data were processed

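Stranded total RNA libraries (TruSeq) were made from 18 muscles, per the labels' protocols. The submitters' processing notes name the build mm10 and the tools Trimmomatic 0.33, STAR 2.5.2, RSEM 1.3.3 and DESeq2, with no role or order; the sources used here do not give the annotation or strand setting. The authors deposited normalized counts, a signal for each gene that is not corrected for its length. Within 0.001, 100% of the values were whole reads divided by 1 factor per library, a factor near 1 in library 6 of WT intact and library 2 of BKO ligated muscle, where this tells less. RSEM values may be rounded estimates of reads split between copies or overlapping genes; the overlapping genes found in the table had means up to 5.22. The 32 within-group pairs of libraries differed by more than counting error (a chi-square of 7.35 to 138 per degree of freedom). Reads limit the precision of low genes and are not independent molecules.

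The test was limma 3.58.1 (R 4.3.3; trend, 1 mean for each of 4 groups) on log2(normalized count + 1) for genes with a mean of at least 10. The pseudocount of 1 understates changes of low genes. Errors beside log2 values are standard errors unless given as SD. Alternatives were TMM scaling, edgeR 4.0.16 (quasi-likelihood) and DESeq2 1.42.0 on recovered reads, pseudocounts of 0.5 and 5, no filter or a mean of at least 50, only the groups compared, a replicate block, and each library left out. Data were simulated once for ligation in WT with 12262 genes. In them 100 genes were changed 1.5-fold and 100 genes 2-fold, all with a mean of at least 50. There limma recovered 54% of 1.5-fold and 91% of 2-fold changes, and 3.33% of its calls were false. In the data themselves a larger share of genes (39.8%) was called, so these rates may differ there. Named genes are the 10 enzymes, genes of the pathway lists (at least those called), mt-Rnr2 and Bmal1; of the list of other enzymes as drawn up, 1 gene is not reported here. The enzymes and lists were chosen with earlier results of these data known. Transcript lengths and positions are from GENCODE M21, promoters from RefSeq.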

Additional observations from a re-analysis of the deposited data

Results flagged for a closer look

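For 6 of the 10 enzymes the ligation effect differed between BKO and WT by limma's test of the difference itself, as described above, with log2 differences of -0.90 for Bckdha, -0.89 for Dbt, -0.76 for Bckdk, -0.66 for Ppm1k, -0.59 for Ivd and -0.51 for Hibadh. Of these, Bckdha and Bckdk rose in WT and fell in BKO, and Dbt fell in both. Ppm1k and Ivd fell in BKO and passed in BKO alone. Hibadh rose in WT and passed in WT alone. In 1 of the 40 sets of an enzyme in a group, 1 library lay far from the others: Mccc1 in WT intact library 3 had 184 normalized counts, and the other 4 libraries had 125 to 137. Chance sets a library apart in this way in about 1 of 20 such sets.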

How the results depend on the processing

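For the 50 log2 fold changes of the 10 enzymes, 959 alternative values kept direction and call, 52 (11 results) lost the call, 6 (3 results) gained it and 13 (4 results) changed sign, none of them called. The sign changes were 0.012 for Ppm1k on ligation in WT without WT ligated library 6 (range without 1 library -0.090 to 0.012), and -0.0028 and -0.023 for Ivd without WT intact library 5 and 6 (-0.023 to 0.12). Hibch in intact limbs had -0.0038 with TMM, -0.0076 with edgeR, -0.00089 with DESeq2 and -0.068 to 0.086 without 1 library. Bckdhb in ligated limbs had 0.16 without BKO ligated libraries 4 and 5. The causes were not tested. Without 1 library, called enzymes numbered 4 to 6 for ligation in WT, 8 in BKO, 3 to 6 and 1 to 5 for the knockout in intact and ligated limbs, and 5 to 6 for the interaction. The knockout in ligated limbs gave 1 called enzyme with ligated libraries alone in the fit or without BKO ligated libraries 4 and 5, and 616 genes in place of 1084 in the latter. The interaction gave 1158 genes with DESeq2, 382 with the replicate block and 269 without those libraries; without 1 library it gave 402 (WT ligated library 2) to 1015, and the knockout in ligated limbs 733 to 1257. Same-numbered libraries did not deviate together (correlations -0.06 to 0.05 over 7 pairs, 1 ligated library correlating best with its own number). Such correlations cannot exclude that same-numbered limbs come from 1 mouse. As the labels do not say so, the number was a block only as an alternative. For ligation and the interaction the replicate block rests on the 7 same-numbered pairs, BKO ligated libraries 4 and 5 among them. Libraries whose number occurs in 1 limb only add nothing there, so its counts also rest on fewer libraries. With the block, 4 enzymes kept the interaction call. Ivd (limma adjusted p = 0.0739) and Hibadh (adjusted p = 0.0594) did not, nor did Dbt for ligation in WT (adjusted p = 0.0688). Transport genes called on ligation in BKO numbered 2 in place of 4 with the block. Of the other enzymes, 3 kept an interaction call with the block, 5 were called in intact limbs with no filter and 1 in ligated limbs with ligated libraries alone in the fit. Of other listed genes, 1457 values kept and 215 (37 results) lost the call.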
